A study of Mus musculus with 2 samples.

Results

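The nuclear-encoded subunits of the mitochondrial respiratory chain and ATP synthase were examined in cultured mouse CD4 T cells. They were taken by gene symbol: the Nduf genes of complex I, Sdha to Sdhd of complex II, the Uqcr genes and Cyc1 of complex III, the nuclear Cox subunit genes of complex IV, the Atp5 genes of complex V and the electron carrier Cycs. The rule found 88 rows among the 23702 rows of the count table. Of these, 79 had a mean of at least 1 CPM (counts scaled to library size) over the libraries and are called measured here, as were 10597 of the 22036 rows with a gene name. The measured rows comprised 36 of 36 for complex I, 4 of 4 for complex II, 9 of 9 for complex III, 12 of 20 for complex IV, 17 of 18 for complex V, and Cycs.

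The respiratory chain passes electrons from NADH and succinate to oxygen through complexes I to IV and pumps protons across the inner mitochondrial membrane. Complex V, the ATP synthase, lets the protons flow back and makes ATP. Complexes I, III, IV and V are built from subunits of the nuclear and the mitochondrial genome, whereas complex II is encoded in the nucleus alone. T cells raise both respiration and glycolysis when they are activated through the antigen receptor.

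The series holds 2 RNA-seq libraries, 1 per condition, made from poly(A)-selected RNA of CD4 T cells that had been isolated out of spleen and lymph node tissue (mice of wild-type genotype). Both cultures were started on plates coated with anti-CD3 (10 μg/mL) and anti-CD28 (5 μg/mL), were given 20 ng/mL IL-6 with antibodies to IFNγ and IL-4 (each labelled 10 mg/mL), and were collected after 24 h. The culture labelled pathogenic Th17 also received 20 ng/mL activin A. The culture labelled non-pathogenic Th17 received 2 ng/mL TGFβ1 instead. The labels give no age, sex or number of mice, and CD4 T cells were plated without a stated naive sort.

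Since each condition has a single library, no test between them could be made. The values of a culture are those of its library, and every ratio is the pathogenic culture over the non-pathogenic culture. Each is given with an exact 95% Clopper-Pearson interval of how the counts divided between the libraries, which covers counting error only and not the spread between cultures. In bulk RNA, fewer cells of a type and less RNA per cell cannot be told apart.

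Counts on named genes summed to 30877656 in the pathogenic culture and 33470161 in the non-pathogenic culture. Of the T cell markers, Cd4 had 6886 counts in the pathogenic culture and 7683 in the non-pathogenic culture, and Cd3e had 5169 and 8423. The 8 Th17 markers summed to 1349 CPM in the pathogenic culture and 1431 CPM in the non-pathogenic culture, with 4 higher and 4 lower: the cytokine gene Il17f had 12180 and 19634 counts and the cytokine gene Il21 had 14186 and 8031 counts in the pathogenic and non-pathogenic libraries. Of the B cell markers, Pax5 was at 0 in both and Cd79a had 11 and 6 counts in the pathogenic and non-pathogenic libraries. The myeloid markers summed to 3.78 and 4.58 CPM in the pathogenic and non-pathogenic libraries, with Csf1r and Adgre1 at 0 in both, and the NK cell markers to 1.52 and 2.93 CPM, with Klrb1c and Ncr1 at 0 in both.

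Promoter sequence was available for 66 of the 79 measured subunit genes, with 71 start sites in all, from the RefSeq table of build GRCm38.p6 (250 bases before a start to 50 after it). NRF1, the ETS factor GABP and YY1 are known regulators of nuclear genes for mitochondrial proteins, so the promoters were searched on both strands for GCGCATGC (NRF1), CCGGAAG (ETS) and AAGATGGC (YY1). The NRF1 string was found in 15.5% of the subunit promoters, against 2.71% of all 32851 promoters of the same length and 5.74% of the promoters of measured genes. The ETS string was found in 22.5% of the subunit promoters, against 8.86% of all promoters and 19.5% of those of measured genes. The YY1 string was found in 14.1% of the subunit promoters, against 2.75% and 4.86%. For each string, the promoter with the most matches is shown, with ties broken by expression. Capitals mark every match to any of the 3 strings. Uqcrc1 lies on the plus strand at chr9:108936398-108936697, and its 2 NRF1 matches overlap as the 2 strands of 1 site that begins 30 bases past the start. Cox8a lies on the minus strand at chr19:7217567-7217866 and holds 2 ETS matches. Atp5f1 lies on the minus strand at chr3:105959214-105959513 and holds 1 YY1 match that begins 3 bases before the start.
Uqcrc1: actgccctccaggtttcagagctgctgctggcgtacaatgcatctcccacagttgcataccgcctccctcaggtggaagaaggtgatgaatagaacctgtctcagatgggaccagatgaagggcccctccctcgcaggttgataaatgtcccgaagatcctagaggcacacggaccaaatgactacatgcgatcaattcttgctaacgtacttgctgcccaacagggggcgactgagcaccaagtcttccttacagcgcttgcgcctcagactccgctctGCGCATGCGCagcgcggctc
Cox8a: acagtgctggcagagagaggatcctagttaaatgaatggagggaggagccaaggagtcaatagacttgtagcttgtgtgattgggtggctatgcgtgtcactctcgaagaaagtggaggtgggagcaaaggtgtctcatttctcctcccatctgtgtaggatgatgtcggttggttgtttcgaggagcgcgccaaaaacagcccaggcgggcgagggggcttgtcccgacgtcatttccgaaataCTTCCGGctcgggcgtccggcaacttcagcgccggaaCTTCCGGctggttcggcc
Atp5f1: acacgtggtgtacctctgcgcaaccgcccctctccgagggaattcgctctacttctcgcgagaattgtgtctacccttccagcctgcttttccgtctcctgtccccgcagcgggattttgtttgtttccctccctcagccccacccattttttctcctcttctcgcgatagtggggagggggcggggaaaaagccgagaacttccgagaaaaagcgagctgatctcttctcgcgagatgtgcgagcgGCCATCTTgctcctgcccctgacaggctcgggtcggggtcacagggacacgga
The ratios of the genes behind these promoters did not fall together: Uqcrc1 was at 1.01, Cox8a at 1.83 and Atp5f1 at 0.951. Across the subunits, the median log2 ratio was 0.43 in the 11 genes with an NRF1 match and 0.41 in the 55 without, 0.58 in the 16 with an ETS match and 0.35 in the 50 without, and 0.28 in the 10 with a YY1 match and 0.43 in the 56 without. With the transcript length and GC trend removed, these medians were 0.040 with and 0.14 without an NRF1 match, 0.15 and 0.097 for ETS, and 0.10 and 0.12 for YY1, so that the NRF1 difference turned round. A match is a description of the letters in this window only.

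Subunit transcripts were more abundant in the pathogenic culture, unevenly. Their summed level was 9451.5 CPM, or 0.947% of the counts on all rows with a gene name, in the pathogenic culture, against 7928.3 CPM, or 0.792%, in the non-pathogenic culture, a ratio of 1.19 (1.19 to 1.20). The median log2 ratio of the 79 subunits was 0.34, against −0.0045 for all measured genes. Of the 79, 43 were at least 25% higher in the pathogenic culture and 0 were lower by the same fold, which is at least 20%, while 16.5% of all measured genes were past that size upwards and 15.2% downwards. At 2-fold, 9 subunits were higher and 0 lower, against 2.25% of all measured genes higher and 1.95% lower. The interval lay above 1 for 60 subunits, below 1 for 8 and held 1 for 11. Of the 10597 measured genes, it lay above 1 for 3496, below 1 for 3598 and held 1 for 3503. Of the 79, 24 have a near-identical copy of at least 150 bases at 95% identity elsewhere in the annotation, between which reads can be split. Among the 55 without such a copy, 5 were at least 2-fold and 27 at least 25% higher.

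**Figure D1:**
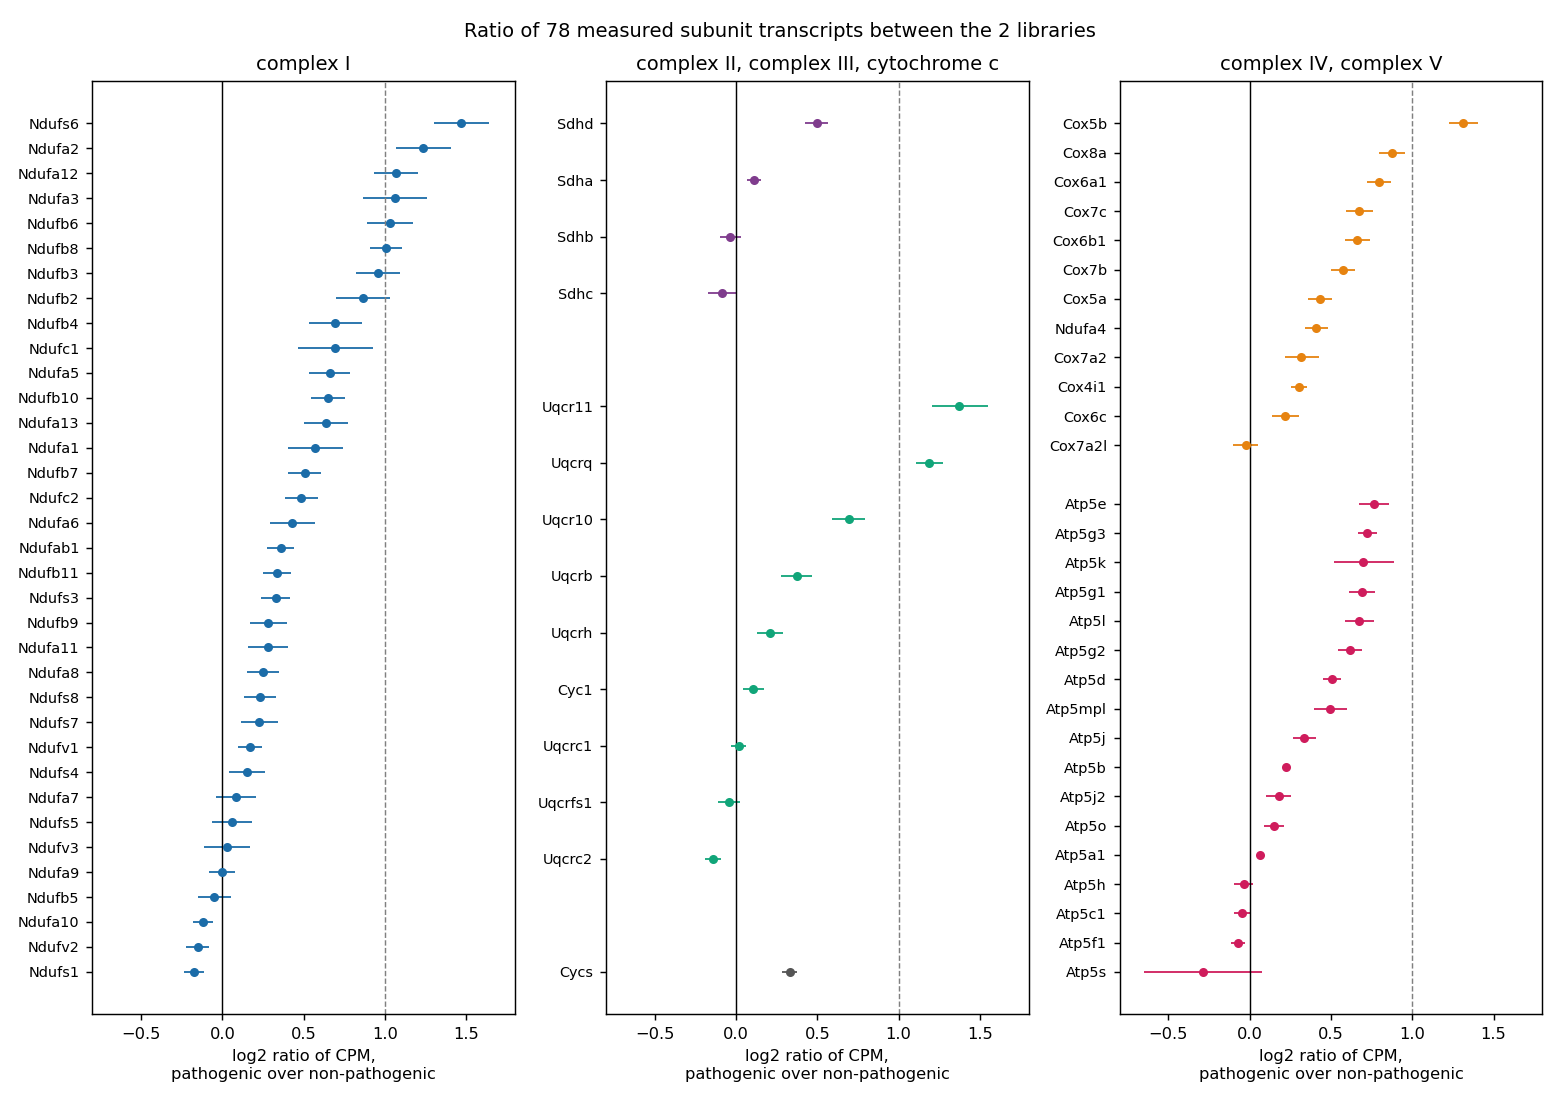
Log2 ratio of CPM (pathogenic over non-pathogenic, x axis) of 78 of the 79 measured subunits, by complex. Points are 1 library against 1 library, bars are exact 95% counting intervals, the solid line marks equal levels and the dashed line 2-fold. Ndufs6, at 1.47, is the highest and Atp5s, at −0.28, the lowest.

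Complex I, the NADH dehydrogenase, had a median log2 ratio of 0.35 over 36 subunits, and 20 of them were at least 25% higher in the pathogenic culture. The accessory subunits, which surround the catalytic core, were the higher ones: 19 of 29 were at least 25% higher and their median was 0.51. The 7 core subunits of the matrix arm, which carry the flavin and the iron-sulfur clusters, had a median of 0.17, and 1 of the 7 was at least 25% higher. In summed level the core subunits stood at 613.21 CPM in the pathogenic culture and 607.03 CPM in the non-pathogenic culture, a ratio of 1.01 (0.990 to 1.03). The accessory subunits stood at 1341.8 CPM and 1015.4 CPM in the pathogenic and non-pathogenic libraries, a ratio of 1.32 (1.30 to 1.34).

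Ndufs6, a zinc-binding accessory subunit of the matrix arm (chr13:73319838-73328542, minus strand), had 1037 counts in the pathogenic culture and 405 in the non-pathogenic culture, a ratio of 2.76 (2.46 to 3.11). Ndufa2, an accessory subunit with a thioredoxin fold, had 903 counts in the pathogenic culture and 414 in the non-pathogenic culture, a ratio of 2.35 (2.10 to 2.65). Ndufa12, a further accessory subunit of the matrix arm, had 1320 counts in the pathogenic culture and 680 in the non-pathogenic culture, a ratio of 2.10 (1.91 to 2.30). These 3 were the highest of complex I, and Ndufs6 and Ndufa12 each have 1 near-identical copy in the annotation. In the membrane arm, which pumps protons, the accessory subunits Ndufa3, Ndufb6 and Ndufb8 were also past 2-fold. Ndufa3 had 624 counts in the pathogenic culture and 323 in the non-pathogenic culture, a ratio of 2.08 (1.82 to 2.40). Ndufb6 had 1190 and 629 counts in the pathogenic and non-pathogenic libraries, a ratio of 2.04 (1.85 to 2.26), and Ndufb8 had 2280 and 1227 counts, a ratio of 2.01 (1.87 to 2.15). Ndufb3, at 1275 and 709 counts in the pathogenic and non-pathogenic libraries, fell just short of 2-fold with a ratio of 1.94 (1.77 to 2.13).

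At the other end stood both core and accessory subunits. Ndufs1, the iron-sulfur subunit of the NADH-oxidising module (chr1:63143596-63176833, minus strand), had 3969 counts in the pathogenic culture and 4844 in the non-pathogenic culture, a ratio of 0.886 (0.849 to 0.924). Ndufv2, an iron-sulfur subunit of the same module, had 2796 counts in the pathogenic culture and 3359 in the non-pathogenic culture, a ratio of 0.900 (0.855 to 0.946). Ndufa10, a membrane arm accessory subunit related to nucleoside kinases, had 3949 and 4626 counts in the pathogenic and non-pathogenic libraries, a ratio of 0.923 (0.884 to 0.963). Their intervals lay below 1, yet none was lower by as much as 20%. Ndufv1, which binds NADH and the flavin, was at 2858 and 2744 counts in the pathogenic and non-pathogenic libraries, a ratio of 1.13 (1.07 to 1.19). The only core subunit at least 25% higher was Ndufs3, with 2122 counts in the pathogenic culture and 1828 in the non-pathogenic culture and a log2 ratio of 0.33. The matrix arm as a whole had a median log2 ratio of 0.20 over 16 subunits and the membrane arm one of 0.57 over 19, and Ndufab1, the acyl carrier protein found in both arms, had 0.36.

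Complex II, succinate dehydrogenase, differed little. Its catalytic flavoprotein Sdha had 9792 counts in the pathogenic culture and 9806 in the non-pathogenic culture, a ratio of 1.08 (1.05 to 1.11) after scaling to library size. The iron-sulfur subunit Sdhb had 3616 counts in the pathogenic culture and 4008 in the non-pathogenic culture, a ratio of 0.975 (0.932 to 1.02). Of the membrane anchors, Sdhc had 2118 and 2432 counts in the pathogenic and non-pathogenic libraries, a ratio of 0.941 (0.888 to 0.998), and Sdhd had 3572 and 2737 counts, a ratio of 1.41 (1.34 to 1.48). Sdhd alone among the 4 was at least 25% higher, and the median log2 ratio was 0.037.

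Complex III, which passes electrons from ubiquinol to cytochrome c, differed by subunit. Its 5 small subunits were all higher in the pathogenic culture, at 357.26 CPM together against 224.54 CPM in the non-pathogenic culture, a ratio of 1.59 (1.55 to 1.64). Uqcr11, the smallest of them (chr10:80402997-80406830, minus strand), had 927 counts in the pathogenic culture and 386 in the non-pathogenic culture, a ratio of 2.59 (2.30 to 2.93), with 2 near-identical copies in the annotation. Uqcrq, a ubiquinone-binding subunit (chr11:53427922-53430831, minus strand), had 3521 counts in the pathogenic culture and 1668 in the non-pathogenic culture, a ratio of 2.28 (2.15 to 2.42), and has no such copy. Uqcr10 was at 1954 and 1306 counts in the pathogenic and non-pathogenic libraries (1.62, 1.51 to 1.74). Uqcrb was at 2019 and 1685 counts (1.29, 1.21 to 1.38), and Uqcrh, the hinge protein, at 2627 and 2459 counts (1.15, 1.09 to 1.22).

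The redox-active and core subunits of complex III were near equal. Cyc1, cytochrome c1, had 4169 counts in the pathogenic culture and 4183 in the non-pathogenic culture, a ratio of 1.08 (1.03 to 1.12). Uqcrfs1, the Rieske iron-sulfur protein, had 3335 and 3709 counts in the pathogenic and non-pathogenic libraries, a ratio of 0.972 (0.927 to 1.02). The large core proteins Uqcrc1, at 6722 and 7188 counts, and Uqcrc2, at 5998 and 7162 counts, had ratios of 1.01 (0.977 to 1.05) and 0.905 (0.874 to 0.937). The median log2 ratio of the whole complex was 0.21, with 4 of 9 subunits at least 25% higher. Cycs, cytochrome c itself, had 9178 counts in the pathogenic culture and 7896 in the non-pathogenic culture, a ratio of 1.26 (1.22 to 1.29), and its near-identical copy Gm10053 had 522 and 536 counts in the pathogenic and non-pathogenic libraries.

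Complex IV, cytochrome c oxidase, had the highest median log2 ratio of the 5 complexes, 0.50 over 12 measured rows, of which 8 were at least 25% higher. Its nuclear subunits do not carry the redox centres, which lie in the mitochondrially encoded subunits. In summed level it stood at 1317.8 CPM in the pathogenic culture and 920.59 CPM in the non-pathogenic culture, a ratio of 1.43 (1.41 to 1.45). Cox5b, a zinc-binding subunit (chr1:36691449-36693681, plus strand), had 3353 counts in the pathogenic culture and 1458 in the non-pathogenic culture, a ratio of 2.48 (2.34 to 2.64). Its near-identical copy Gm11273 had 271 counts in the pathogenic culture and 136 in the non-pathogenic culture, which moved the same way. Cox8a had 3484 and 2052 counts in the pathogenic and non-pathogenic libraries (1.83, 1.74 to 1.94). Cox6a1 had 3862 and 2407 counts (1.73, 1.65 to 1.83). The lowest were Cox4i1, the ubiquitous subunit that contacts the catalytic core, at 6778 and 5940 counts in the pathogenic and non-pathogenic libraries (1.23, 1.19 to 1.28), Cox6c at 2407 and 2237 counts (1.16, 1.10 to 1.23), and Cox7a2l, a factor that joins complexes III and IV into supercomplexes, at 2748 and 3024 counts (0.982, 0.932 to 1.03). Ndufa4, once assigned to complex I and now to complex IV, was at 3543 and 2883 counts (1.33, 1.26 to 1.40).

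The tissue-restricted Cox isoforms were barely detected in either library, in contrast to their ubiquitous paralogs. The muscle isoforms Cox6a2 and Cox7a1 had 6 and 7 counts in the pathogenic culture, against 0 and 4 in the non-pathogenic culture, while the ubiquitous Cox7a2 had 1607 counts in the pathogenic culture and 1393 in the non-pathogenic culture. Cox4i2, the isoform of lung, had 5 counts in the pathogenic culture and 0 in the non-pathogenic culture. Cox6b2, the isoform of testis, had 21 counts in the pathogenic culture and 7 in the non-pathogenic culture, against 3215 and 2195 for Cox6b1. Cox7b2, Cox8b and Cox8c had 0 counts in both libraries, and Ndufa4l2, a hypoxia-inducible paralog of Ndufa4, had 0 in the pathogenic culture and 3 in the non-pathogenic culture. The 8 Cox-related rows that did not reach a mean of 1 CPM therefore carry no ratio here. A second row under the symbol Atp5o, which overlaps the first, had 0 counts in both libraries.

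**Figure D2:**
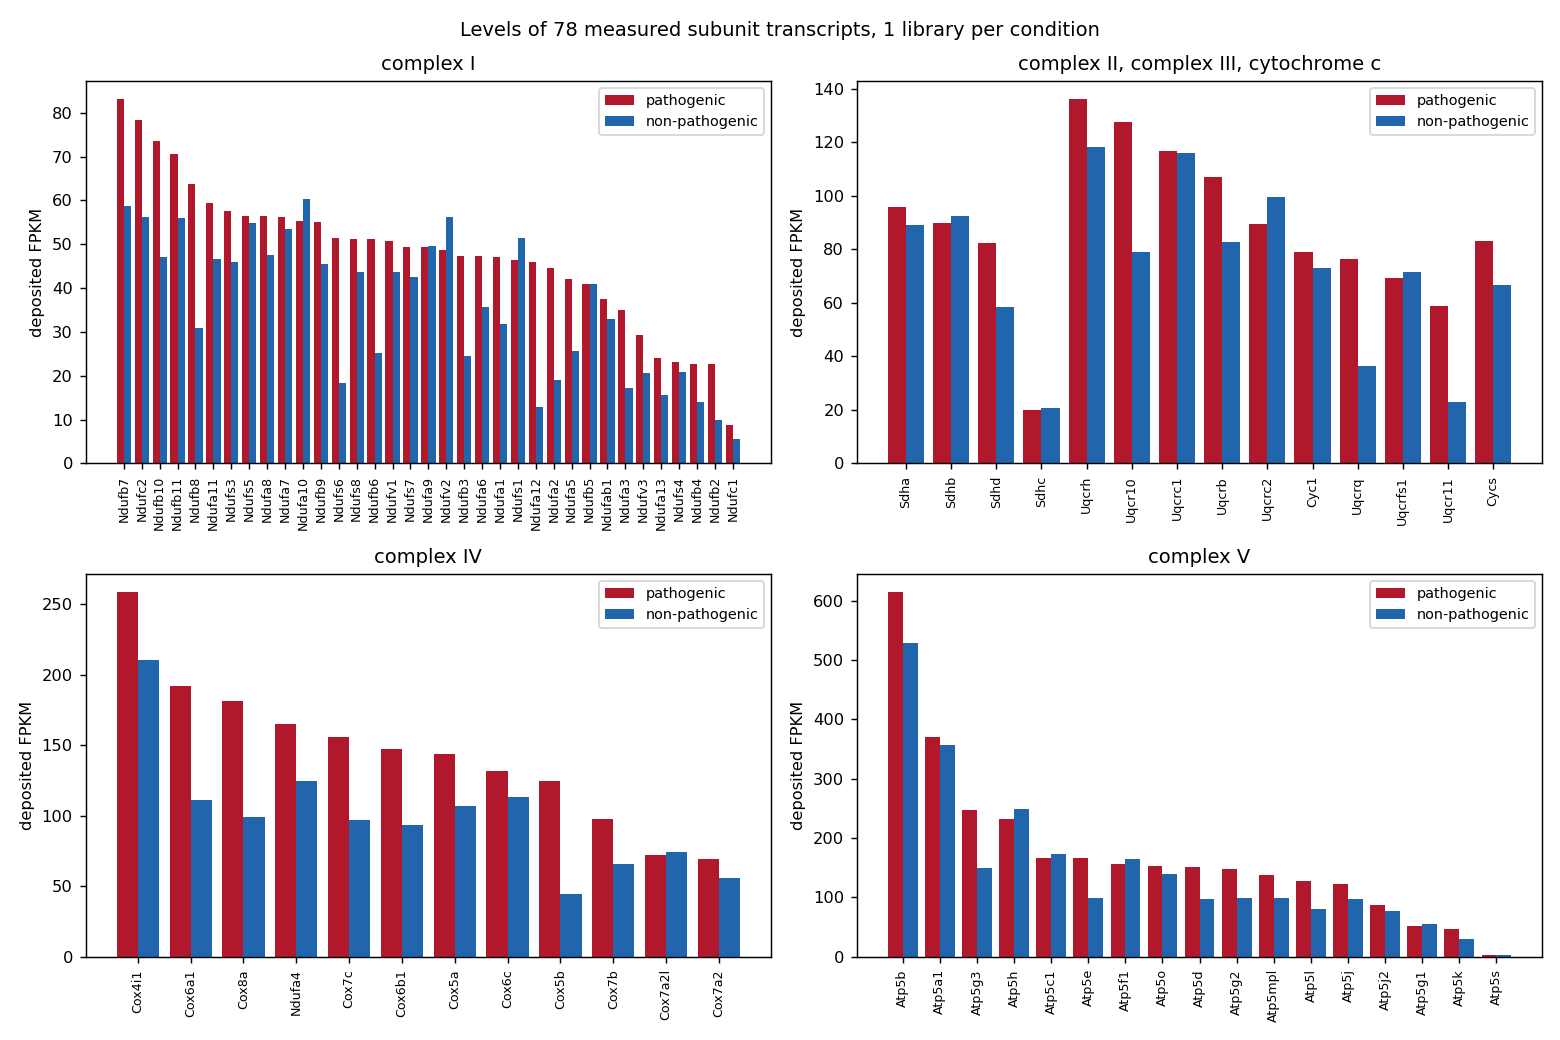
Deposited FPKM (fragments per kilobase of transcript, scaled to library depth, y axis) of 78 of the 79 measured subunits in the pathogenic culture (red) and the non-pathogenic culture (blue), by complex, with no error bars because each bar is 1 library. Bars of the catalytic complex V subunit Atp5b reach 614 in the pathogenic culture and 528 in the non-pathogenic culture, and those of Cox5b 125 and 44.4.

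Complex V, the ATP synthase, had a median log2 ratio of 0.33 over 17 measured rows, 9 of them at least 25% higher and 0 past 2-fold. Its catalytic head held the most abundant subunits of the whole set. Atp5b, the catalytic beta subunit (chr10:128083273-128090391, plus strand), had 41533 counts in the pathogenic culture and 38434 in the non-pathogenic culture, a ratio of 1.17 (1.15 to 1.18). Atp5a1, the alpha subunit beside it, had 32368 counts in the pathogenic culture and 33419 in the non-pathogenic culture, a ratio of 1.05 (1.03 to 1.06). Together these made up 25.3% of the summed subunit CPM in the pathogenic culture and 27.1% in the non-pathogenic culture. Atp5c1, the gamma subunit of the rotor, had 6863 and 7671 counts in the pathogenic and non-pathogenic libraries (0.967, 0.936 to 0.999). The small subunits of the central stalk were higher: Atp5e (epsilon) had 2458 and 1567 counts (1.69, 1.59 to 1.81) and Atp5d (delta) 5854 and 4460 counts (1.42, 1.36 to 1.48).

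The c-ring, the proton-driven rotor, is encoded by 3 genes whose mature proteins are identical, and all 3 were higher in the pathogenic culture. Atp5g3 had 6268 counts in the pathogenic culture and 4101 in the non-pathogenic culture (1.65, 1.59 to 1.72). Atp5g1 had 3040 and 2036 counts (1.61, 1.53 to 1.71) and Atp5g2 had 3725 and 2623 counts (1.53, 1.46 to 1.61) in the pathogenic and non-pathogenic libraries. Their sum was 421.45 CPM in the pathogenic culture and 262.12 CPM in the non-pathogenic culture, a ratio of 1.61 (1.57 to 1.65). For Atp5g1 the deposited FPKM went the other way, at 51.8 in the pathogenic culture and 55.0 in the non-pathogenic culture. The peripheral stalk, which holds the head still, had a summed ratio of 1.03 (1.01 to 1.05): Atp5f1 had 8853 and 10064 counts (0.951, 0.924 to 0.978) and Atp5h 4761 and 5283 counts (0.974, 0.936 to 1.01) in the pathogenic and non-pathogenic libraries. Its other measured members lay above 1, Atp5j at 3461 and 2966 counts (1.26, 1.20 to 1.32) and Atp5o at 4518 and 4405 counts (1.11, 1.06 to 1.16). Of the small membrane subunits that join synthase dimers, Atp5k had 610 and 406 counts (1.62, 1.43 to 1.85) and Atp5l 2430 and 1646 counts (1.60, 1.50 to 1.70). The other membrane accessory subunits were lower in ratio. Atp5mpl had 1788 and 1371 counts (1.41, 1.31 to 1.51) and Atp5j2 2879 and 2752 counts (1.13, 1.07 to 1.19) in the pathogenic and non-pathogenic libraries. The 4 together had a summed ratio of 1.35 (1.30 to 1.395). Atp5s, coupling factor B, which carries an Atp5 name but lies outside these modules, had 113 counts in the pathogenic culture and 149 in the non-pathogenic culture, a ratio of 0.821 (0.636 to 1.05).

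Levels per transcript length were read from the deposited FPKM. The median FPKM of complex I subunits was 49.4 in the pathogenic culture and 41.7 in the non-pathogenic culture, that of complex III subunits 89.6 and 79.2, that of complex IV subunits 146 and 97.9, and that of complex V subunits 151 and 98.4. Within complex I the lowest level was that of Ndufc1, at 8.88 FPKM in the pathogenic culture and 5.51 FPKM in the non-pathogenic culture. Ndufb7 had 83.1 FPKM in the pathogenic culture, the highest there, and 58.7 FPKM in the non-pathogenic culture. The coefficient of variation among the subunits of a complex was smaller in the pathogenic culture in each of the 5 complexes. It was 33.7% in the pathogenic culture and 46.8% in the non-pathogenic culture for complex I, and 28.5% and 41.7% for complex III. It was 36.5% and 42.9% for complex IV, 80.4% and 87.8% for complex V, and 48.6% and 51.2% for complex II. No length trend was taken off these FPKM values, and the same measure was not taken for other gene families. The complex V values include Atp5s and the complex I values Ndufa12, whose FPKM and count ratios differ. In complex II the span from lowest to highest subunit went the other way, at 4.76-fold in the pathogenic and 4.48-fold in the non-pathogenic culture. In complex V it was 218-fold and 189-fold, but the lowest row was Atp5s, which lies outside the synthase modules. Of the other complex V rows the lowest was Atp5k, at 46.5 FPKM in the pathogenic and 28.8 FPKM in the non-pathogenic culture. Atp5b was highest at 614 and 528 FPKM, so without Atp5s the span was narrower in the pathogenic culture. The FPKM gave a different ratio from the counts for a few subunits: Ndufa12 had 46.0 FPKM in the pathogenic culture and 12.9 in the non-pathogenic culture (log2 ratio 1.82, against 1.07 from counts), and Ndufv3 had 29.4 and 20.6 FPKM (0.51, against 0.028 from counts).

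Transcript length moved with the ratio, among the subunits and among all genes. Over the 79 subunits the Spearman correlation of log2 ratio with length was −0.49, and over all measured genes −0.14; these points share the same 2 libraries and are a description. The library protocol selected fragments of 300 to 400 bp. The 6 subunits with transcripts of up to 500 bases had a median log2 ratio of 0.70, and the 65 other measured genes of that length one of 0.57. Between 500 and 750 bases the 27 subunits had a median of 0.51 and the 189 other genes 0.36. Between 750 and 1000 bases the 13 subunits had 0.34 and the 340 other genes 0.18. Between 1000 and 1500 bases the 12 subunits had 0.16 and the 973 other genes 0.088. Of these, 50% of the subunits and 24.9% of the other genes were at least 25% higher. Between 1500 and 2500 bases the 14 subunits had 0.022 and the 2454 other genes −1.5e-05, with 7.14% and 16.1% at least 25% higher. The 7 subunits beyond 2500 bases departed from the fall with length, with 0.33 against −0.037 for the 6494 other genes. Atp5g1 and Ndufb2, at log2 ratios of 0.69 and 0.86, are among them through long annotated transcripts. The subunits with longer transcripts include most of the catalytic ones, so length and role cannot be told apart within this set.

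**Figure D3:**
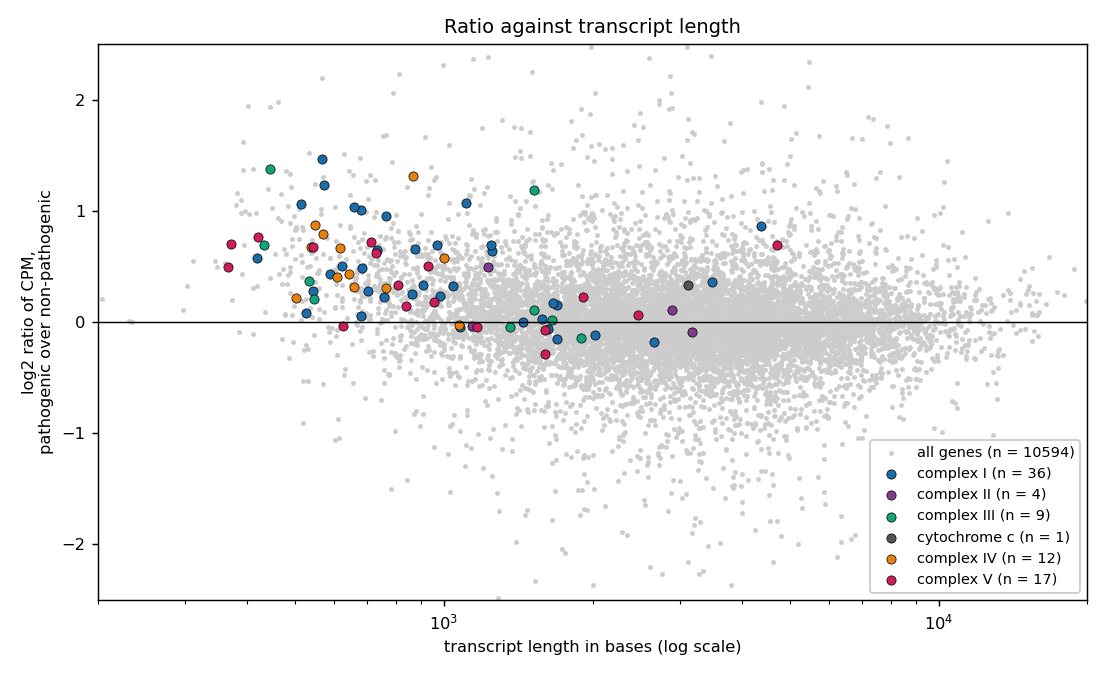
Log2 ratio of CPM (pathogenic over non-pathogenic, y axis) against transcript length in bases (log x axis). Grey points are all measured genes with a length and coloured points are subunits by complex, and genes beyond the axis limits are not drawn. Both grey and coloured points sit higher at short lengths, with a Spearman correlation of −0.49 over the 79 subunits and −0.14 over all genes.

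With a smooth trend over length and GC content, fitted on all measured genes, taken off, the median log2 ratio of the subunits was 0.079, against −0.015 for all genes. The number at least 25% higher was then 22, or 27.8%, against 14.5% of all genes. Ndufa7 and Atp5h, or 2.53% of the subunits, were at least 20% lower, against 15.8% of all genes. Uqcrq and Cox5b were past 2-fold here too, at log2 ratios of 1.15 and 1.09. They are 2.53% of the subunits, against 1.84% of all genes at least 2-fold higher with the trend removed. Ndufs6 was at 0.99, Ndufa12 at 0.93, Ndufa2 at 0.80 and Uqcr11 at 0.74. The median was 0.093 for complex I, 0.057 for complex II, −0.013 for complex III, 0.17 for complex IV and 0.040 for complex V. The contrasts between modules also narrowed or moved. The 5 small subunits of complex III had a median of 0.089 in place of 0.69, with 3 of the 5 above 0. The matrix arm of complex I was at −0.018 in place of 0.20 and the membrane arm at 0.16 in place of 0.57. The accessory subunits of complex I were at 0.20 and its core subunits at −0.10. The part that fragment length played in the ratios was not tested.

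**Figure D4:**
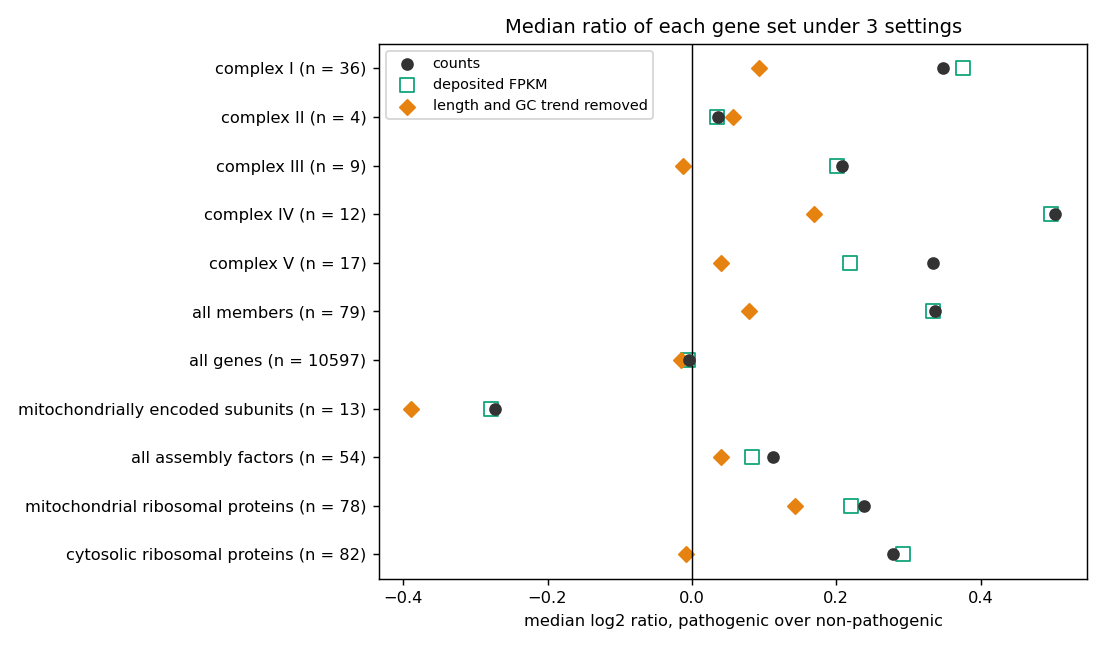
Median log2 ratio (pathogenic over non-pathogenic, x axis) of each gene set, from counts (filled circles), from the deposited FPKM (open squares) and from counts with the length and GC trend removed (diamonds). The subunit median is 0.34 from counts and 0.079 with the trend removed, and the median of the mitochondrially encoded subunits lies below 0 in all 3.

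The 13 subunits encoded by mitochondrial DNA moved the other way in sum. Their summed level was lower in the pathogenic culture, at 27910 CPM against 34414 CPM in the non-pathogenic culture, a ratio of 0.811 (0.809 to 0.813), and their median log2 ratio was −0.27. The ratio of mitochondrial to nuclear subunit CPM was 2.95 in the pathogenic culture and 4.34 in the non-pathogenic culture. For complex I it was 5.18 in the pathogenic culture and 8.42 in the non-pathogenic culture, and for complex IV 9.61 and 16.3. mt-Nd5, a proton-pumping subunit of complex I, had 63993 counts in the pathogenic culture and 102276 in the non-pathogenic culture (0.676, 0.670 to 0.683). mt-Co1, which holds the oxygen-reducing centre of complex IV, had 271858 and 376943 counts (0.779, 0.776 to 0.783). The highest was mt-Nd3, with 6005 counts in the pathogenic culture and 4611 in the non-pathogenic culture (1.41, 1.35 to 1.46), and 5 of the 13 were above 1. Over the 13, the Spearman correlation of log2 ratio with transcript length was −0.69, again a description of the same 2 libraries. The 3 shortest transcripts (mt-Atp8, mt-Nd4l and mt-Nd3) were above 1, whereas the next in length, mt-Nd6, had a log2 ratio of −0.53. With the trend over length and GC removed, the median was −0.39 and 0 of the 13 lay above equal levels. The RNA was poly(A)-selected, and some neighbouring mitochondrial messages overlap, so single values of neighbours such as mt-Atp8 and mt-Atp6 may share reads.

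**Figure D5:**
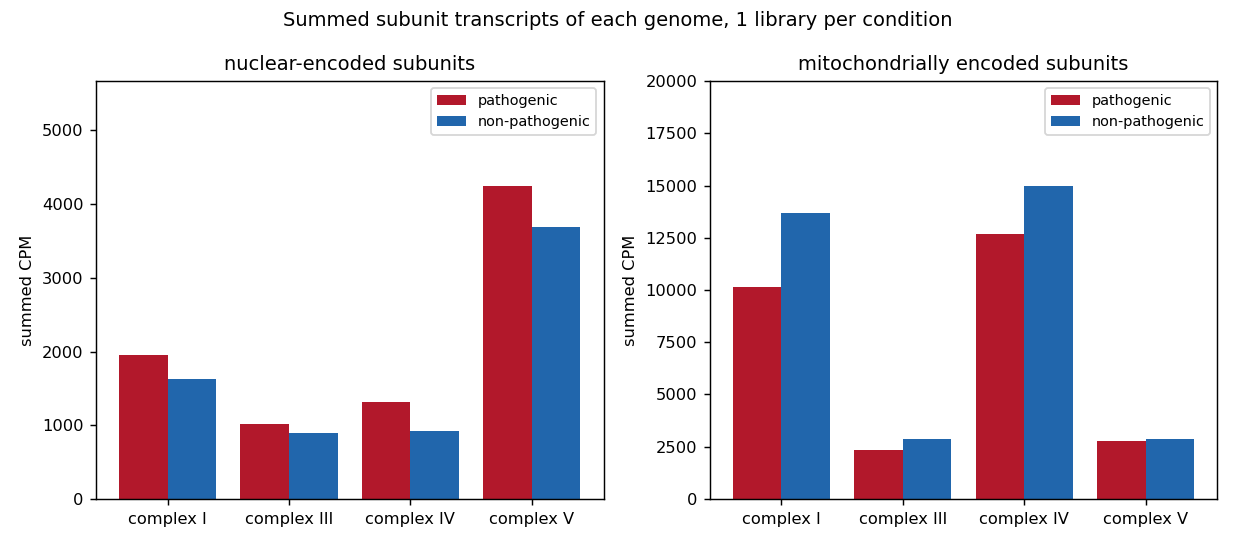
Summed CPM (y axis) of nuclear-encoded (left) and mitochondrially encoded (right) subunits of complexes I, III, IV and V, in the pathogenic (red) and non-pathogenic (blue) library, with no error bars because each bar is 1 library. The nuclear sums are higher in the pathogenic culture in each complex and the mitochondrial sums lower, for complex I 1955.1 and 1622.4 CPM nuclear, and 10130 and 13666 CPM mitochondrial, in the pathogenic and non-pathogenic libraries.

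Genes that help build the complexes were set beside the subunits. Of 54 measured assembly factors, 14, or 25.9%, were at least 25% higher in the pathogenic culture and 4 at least 20% lower, against 16.5% of all measured genes higher and 15.2% lower, and their median log2 ratio was 0.11. With the length and GC trend removed the medians were 0.079 for the subunits and 0.040 for the assembly factors. Ndufaf8, a complex I assembly factor, had 619 counts in the pathogenic culture and 371 in the non-pathogenic culture (1.80, 1.58 to 2.06), and Uqcc2, which helps make cytochrome b, had 946 and 576 counts (1.77, 1.60 to 1.97). Cox17, the copper chaperone of complex IV, had 1391 and 1002 counts (1.50, 1.38 to 1.63). On the low side, Ndufaf3 had 127 counts in the pathogenic culture and 193 in the non-pathogenic culture (0.713, 0.564 to 0.894). The 13 coenzyme Q synthesis genes had a median of 0.065, with Coq7, a hydroxylase of the pathway, highest at 650 and 544 counts in the pathogenic and non-pathogenic libraries (1.29, 1.15 to 1.45).

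Among 17 measured regulators of mitochondrial biogenesis the median log2 ratio was −0.0049. Esrra, the nuclear receptor ERRα, alone was past 2-fold, with 707 counts in the pathogenic culture and 372 in the non-pathogenic culture (2.05, 1.81 to 2.34). This is 5.88% of the 17, against 2.25% of all measured genes at least 2-fold higher. With the length and GC trend removed, 0 of the 17 were past 2-fold. Ppargc1b, which encodes a coactivator of ERRα, had 320 and 225 counts (1.53, 1.29 to 1.83), and Ppargc1a had 0 in both libraries. Nrf1, the factor whose string was searched in the promoters, had 1453 counts in the pathogenic culture and 1916 in the non-pathogenic culture (0.820, 0.765 to 0.878). Yy1 had 4203 and 5279 counts (0.860, 0.826 to 0.896), and the GABP subunit gene Gabpa had 4253 and 4612 counts (0.997, 0.956 to 1.04). Of the other enzymes that feed electrons to coenzyme Q, Sqor, which oxidises sulfide, had 112 counts in the pathogenic culture and 55 in the non-pathogenic culture (2.18, 1.58 to 3.10), and Etfdh had 1332 and 1855 counts (0.776, 0.723 to 0.833).

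The respiratory chain subunits were set beside the other large families of short, abundant transcripts. The 78 mitochondrial ribosomal protein genes had a median log2 ratio of 0.24, with 32, or 41.0%, at least 25% higher in the pathogenic culture and 2 lower. The 82 measured cytosolic ribosomal protein genes had a median of 0.28, with 36, or 43.9%, higher and 1 lower. Of all measured genes, 16.5% were higher and 15.2% lower by these sizes. In the length class of 500 to 750 bases, the medians were 0.51 for the 27 respiratory chain subunits, 0.59 for 10 mitochondrial ribosomal protein genes and 0.31 for 21 cytosolic ones. With the trend removed, the medians over each whole family were 0.079 for the subunits, 0.14 for the mitochondrial ribosomal proteins and −0.0084 for the cytosolic ones. At least 25% higher were then 20 of the 78 mitochondrial and 11 of the 82 cytosolic ones, against 14.5% of all genes. At least 20% lower were 2 and 10, against 15.8% of all genes. With 1 library per condition, whether the families differ could not be tested.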

How the data were processed

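RNA-seq libraries of 1 pathogenic and 1 non-pathogenic Th17 culture were analysed from tables of whole-number counts and of FPKM per gene, each with a single column for either culture, per the file headers. Reads were placed on build mm10 according to the submitters' processing notes. Which aligner, counter, strand setting and annotation served was not given in the sources used here. FPKM values were computed by the authors and serve as levels per length and as an alternative. Rows without a gene name, left out here, held 2.50% of the pathogenic and 2.90% of the non-pathogenic counts. Symbols turned into dates were restored from identifiers in 27 rows.

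Counts were scaled with TMM factors in edgeR 4.0.16 (R 4.3.3). Log2 ratios used a prior count of 1 in proportion to library size, and genes averaging 1 CPM or more were kept. Ratios carry exact 95% Clopper-Pearson intervals of counting error. No test between conditions was made. Genes were counted as higher at 2-fold and at 25% and as lower at 2-fold and at 20%, the same fold downwards. FPKM ratios used a pseudocount of 0.1. Transcript length, GC content and gene coordinates came from GENCODE release M 21, 1 principal transcript per gene, and the trend was fitted with mgcv 1.9.3. Near-identical copies were found with blastn 2.17.0. Promoters on mouse chromosome 18 were not printed, and values of 1 measured complex I subunit and of some cell type markers are not reported here. The ratio, interval and trend steps were tested on simulated counts with counting error only and a planted length trend. Members, roles and gene lists were chosen with earlier results of these data known. Genes named are those past 2-fold, the 3 highest and 3 lowest of each complex, the most abundant of each, the paralog sets and the carriers, and up to 3 at each end of the other lists. Names outside this rule, such as Ndufb3, Ndufs3, Atp5d, Yy1 and Gabpa, were chosen after their values were seen.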

Additional observations from a re-analysis of the deposited data

How the results depend on the processing

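Scaling by total counts, DESeq2-type size factors and a prior count of 5 changed no median, sum or count of subunits by more than its counting error or 1.5 times. Both trend removals moved most values past these limits, but not the complex II median. That median was 0.037 with the trend left in and 0.057 with the length and GC trend removed. With the length and GC trend removed, the median log2 ratio of all subunits was 0.079 (0.34 with the trend left in), with 0.093 for complex I, 0.17 for complex IV and 0.040 for complex V, and −0.013 for complex III, which changed sign. The summed ratio was 0.11 on the log2 scale in place of 0.25, 22 subunits in place of 43 were at least 25% higher, 2 in place of 0 at least 20% lower, and 2 in place of 9 at least 2-fold higher. With lengths implied by counts per FPKM, an alternative chosen after seeing the data, the medians were 0.050 for all subunits, 0.090 for complex I, 0.15 for complex IV, 0.00017 for complex V and −0.046 for complex III, the summed ratio was 0.11, and 21 subunits were at least 25% higher, 3 at least 20% lower and 2 at least 2-fold higher. Of the single subunits, 18 went from above to below 0 with the trend removed and 20 with implied lengths, and 0 went the other way. Of those at least 25% higher from counts, Atp5mpl (−0.072 and −0.12), Ndufa6 (−0.010 and −0.044) and Uqcrb (−0.013 and −0.046) did so under both, and Atp5k (−0.0085) and Ndufa1 (−0.011) under implied lengths. The deposited FPKM gave 0.22 for complex V and 0.35 for the summed ratio, and Atp5g1 at −0.087. With no filter on level, complex IV was at 0.66 and 1 gene was at least 20% lower. At a minimum of 5 CPM complex V was at 0.41. Leaving out overlapping genes and pseudogenes put the summed ratio at 0.24. Leaving out subunits with a near-identical copy, also chosen after seeing the data, put complex III at 0.11, complex V at 0.41 and the summed ratio at 0.24, with 5 subunits past 2-fold and 27 at least 25% higher. The cause was not tested. No paired analysis was possible because each condition has 1 library, so no replicate could be left out. Depth limits the Cox isoforms with under 1 CPM, for which no ratio is given.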
